A study of Mus musculus with 13 samples.

Results

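The 37 genes described here encode integrin chains, selectins and the main selectin ligand, immunoglobulin-type adhesion molecules of the ICAM and VCAM type, and the proteins that switch integrins on. They were found by gene symbol in a table of raw RNA-seq counts of liver endothelial cells from wild-type mice, and all 37 were among its 24421 symbols. The libraries came from germ-free mice (GF, n = 6, libraries 8 to 13), which carry no microbes, and from conventionally raised mice (CONV-R, n = 7, libraries 1 to 7), which carry a normal microbiota. The labels name no sex, age, batch or cell isolation method and do not say whether a library is 1 animal, and the p-values cover no more than the scatter among libraries, which may be partly technical.

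Integrins are transmembrane receptors built of an alpha and a beta chain, and each pair binds its own set of matrix proteins or counter-receptors on other cells. Talins and kindlins bind the beta chain's cytoplasmic tail and bring the receptor into its active form, and an adaptor complex with integrin-linked kinase ties it to actin. Leukocytes roll along vessel walls on selectins and stop when their own integrins bind ICAM or VCAM molecules on the endothelium. The sinusoidal endothelium of the liver is known for low selectin levels and for reliance on ICAM-1 and VCAM-1 in leukocyte capture.

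The libraries held 23407168 to 35478115 counts in GF and 7590320 to 32869515 in CONV-R. Markers of liver endothelium (13 genes, none at 0) made up 40030 to 43130 counts per 1000000 (CPM) of the library in GF and 23980 to 41310 in CONV-R. The endothelial sum was higher in GF (adjusted p = 0.0385, exact two-sided permutation test over 1716 splits, adjusted over 11 marker lists), a call lost without any 1 GF library (adjusted p up to 0.100). By the same exact permutation test the sum of hepatocyte markers (850.4 to 1330 CPM in GF, 1448 to 8945 in CONV-R) and that of neutrophil and monocyte markers (102 to 227 CPM in GF, 253 to 2458 in CONV-R) were lower in GF (adjusted p = 0.00855 for both). A code number in the library names is 6 for all GF libraries, 10 for CONV-R 1 to 4 and 9 for CONV-R 5 to 7; what it stands for is not stated, and it cannot be told apart from the group.

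Of the 37 members 34 were abundant enough for edgeR's quasi-likelihood test. Itga11, Itgad and Icam4, the alpha chains alpha11 and alphaD and a red-cell ICAM, were not, at no more than 1.45 CPM in any library. At a Benjamini-Hochberg adjusted p under 0.05, 7 members rose in GF (Itgb3, Itga3, Itgb8, Itga1, Itga9, Vcam1 and Itgb4) and 7 fell (Selplg, Itgam, Itga4, Itgal, Fermt3, Itgb2 and Itgav). These 14 were 41.2% of the members tested, beside 24.1% of all 13915 tested genes, of which 11.4% rose and 12.7% fell. The number of members called lower depended on single libraries: it was 1 without CONV-R 6, GF 9 or GF 10, 2 without GF 11 or GF 12 and 3 without GF 13. In 5 members (14.7%) the lowest GF library exceeded the highest CONV-R library, beside 5.94% of all tested genes; in 0 members did every GF library lie below, beside 4.32%. The median log2 fold change (GF over CONV-R throughout) was -0.04 over the tested members and -0.01 over all tested genes. When counts were scaled by library totals instead of TMM, the median of all genes was -0.11 and the split was 7 higher and 12 lower members.

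**Figure D1:**
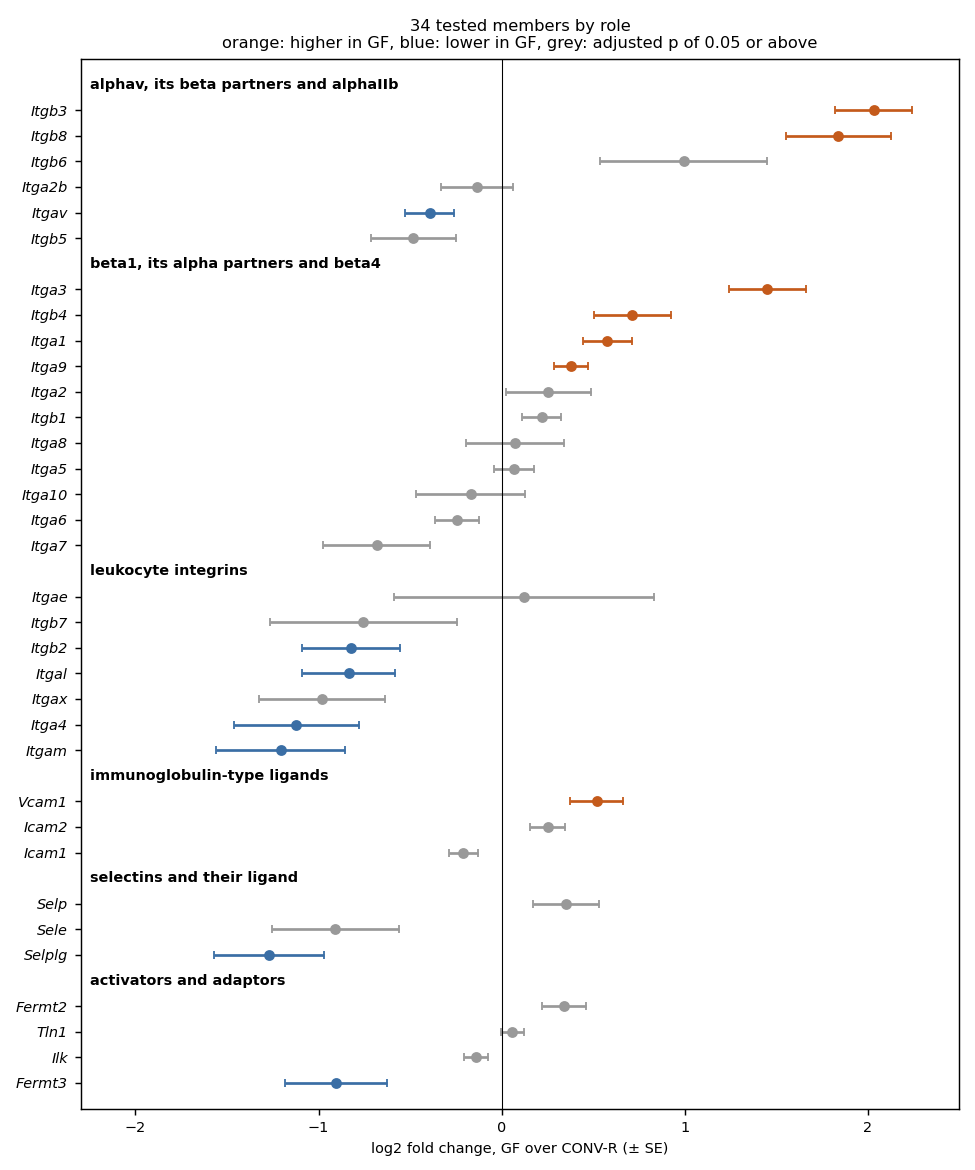
Log2 fold change (GF over CONV-R, x axis) with its standard error for the 34 tested members, grouped by role. Itgb3 at 2.03 lies farthest right, and the leukocyte integrins lie left of 0 except Itgae at 0.12.

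The alphav integrins are receptors for vitronectin, fibronectin and the latent form of TGF-beta, and alphav is shared by beta1, beta3, beta5, beta6 and beta8. Among these chains the beta3 and beta8 genes rose in GF, the alphav gene fell, and the beta5 and beta6 genes did not pass the test. Itgb3 (GRCm38 chromosome 11, 104608000 to 104670476) had a lowest, median and highest value of 204, 234 and 357 CPM in GF, against 44.3, 52.3 and 104.2 CPM in CONV-R. The lowest GF library thus held about as much Itgb3 again as the highest CONV-R library. The mean was 261 ± 60.3 CPM in GF and 63.9 ± 22.2 CPM in CONV-R (mean ± SD, n = 6 GF and 7 CONV-R libraries throughout), a log2 fold change of 2.03 ± 0.21 (SE), or 4.09-fold (adjusted p = 5.13e-05). Itgb3 passed the threshold under each of the 31 alternative settings, with log2 fold changes between 1.75 and 2.37.

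Itgb3 also pairs with alphaIIb, the product of Itga2b, to form the platelet fibrinogen receptor. Itga2b stood at 10.4, 11.6 and 13.8 CPM in GF (lowest, median, highest) and at 8.97, 12.0 and 23.0 CPM in CONV-R, so the groups overlapped (log2 fold change -0.14 ± 0.20, adjusted p = 0.643). The summed level of 10 platelet and megakaryocyte markers was 240 to 303 CPM in GF and 203 to 303 CPM in CONV-R (adjusted p = 0.473, exact permutation test), and none of its 9 tested genes passed the threshold in edgeR (0 at an unadjusted p under 0.05, 0 with DESeq2 and 1 lower in GF with limma-voom). The most abundant of the list, Clec1b, which the liver endothelium also expresses, averaged 256 CPM in GF and 222 CPM in CONV-R. Clec1b made up most of the sum, which therefore says little about platelets. The platelet chemokine gene Pf4 averaged 9.44 CPM in GF and 9.36 CPM in CONV-R.

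Itgb8, whose product with alphav releases active TGF-beta, was scarce, with 28 to 84 counts per GF library and 2 to 30 per CONV-R library. Its levels were 1.24, 2.02 and 2.91 CPM in GF and 0.261, 0.568 and 0.983 CPM in CONV-R (lowest, median, highest), with no overlap. The log2 fold change was 1.84 ± 0.29 (adjusted p = 0.001). Itgb6, an epithelial partner of alphav that also binds latent TGF-beta, was scarcer still at 0.486 to 1.62 CPM in GF and 0.156 to 1.38 CPM in CONV-R (adjusted p = 0.123). Markers of cholangiocytes, the epithelium of bile ducts, were higher in GF too: their sum was 161 to 392 CPM in GF and 55.1 to 295 CPM in CONV-R (adjusted p = 0.0385, exact permutation test), 4 of 8 genes rose and none was at 0 in any library. The call of the sum was lost on leaving out any 1 of 10 of the 13 libraries (adjusted p up to 0.0799). Its most abundant gene, Spp1, made up most of the sum, at a mean of 209.9 CPM in GF and 94.2 CPM in CONV-R. Spp1 did not pass the test in edgeR (adjusted p = 0.0874), so the sum, also as a covariate, mostly reflects 1 gene without a call. Krt19 averaged 39.1 CPM in GF and 11.9 CPM in CONV-R. With that sum as a covariate, a setting added after the data had been seen, Itgb8 stood at 1.20 (adjusted p = 0.0453) and Itgb6 at 0.21. The call of Itgb8 was lost with the neutrophil and monocyte sum as a covariate (1.64, adjusted p = 0.0787). The hepatocyte, neutrophil and monocyte, and B cell sums did not overlap between GF and CONV-R. As covariates, here and below, they lie close to the group label, which can make the group difference less precise.

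Itgav itself had 31.7, 39.8 and 42.0 CPM in GF and 38.9, 47.6 and 67.0 CPM in CONV-R (lowest, median, highest). In GF 3 of 6 libraries lay below every CONV-R library, and the log2 fold change was -0.39 ± 0.13 (adjusted p = 0.0449). The call was lost without any 1 of CONV-R 1, 5, 6 and 7 or of GF 8 to 13 (adjusted p 0.0519 to 0.0914), and with limma-voom (adjusted p = 0.149). Itgb5, the broadly expressed vitronectin receptor chain, stood at 34.8, 41.4 and 55.8 CPM in GF and 34.98, 52.8 and 90.01 CPM in CONV-R, with overlap (log2 fold change -0.48 ± 0.23, adjusted p = 0.141).

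**Figure D2:**
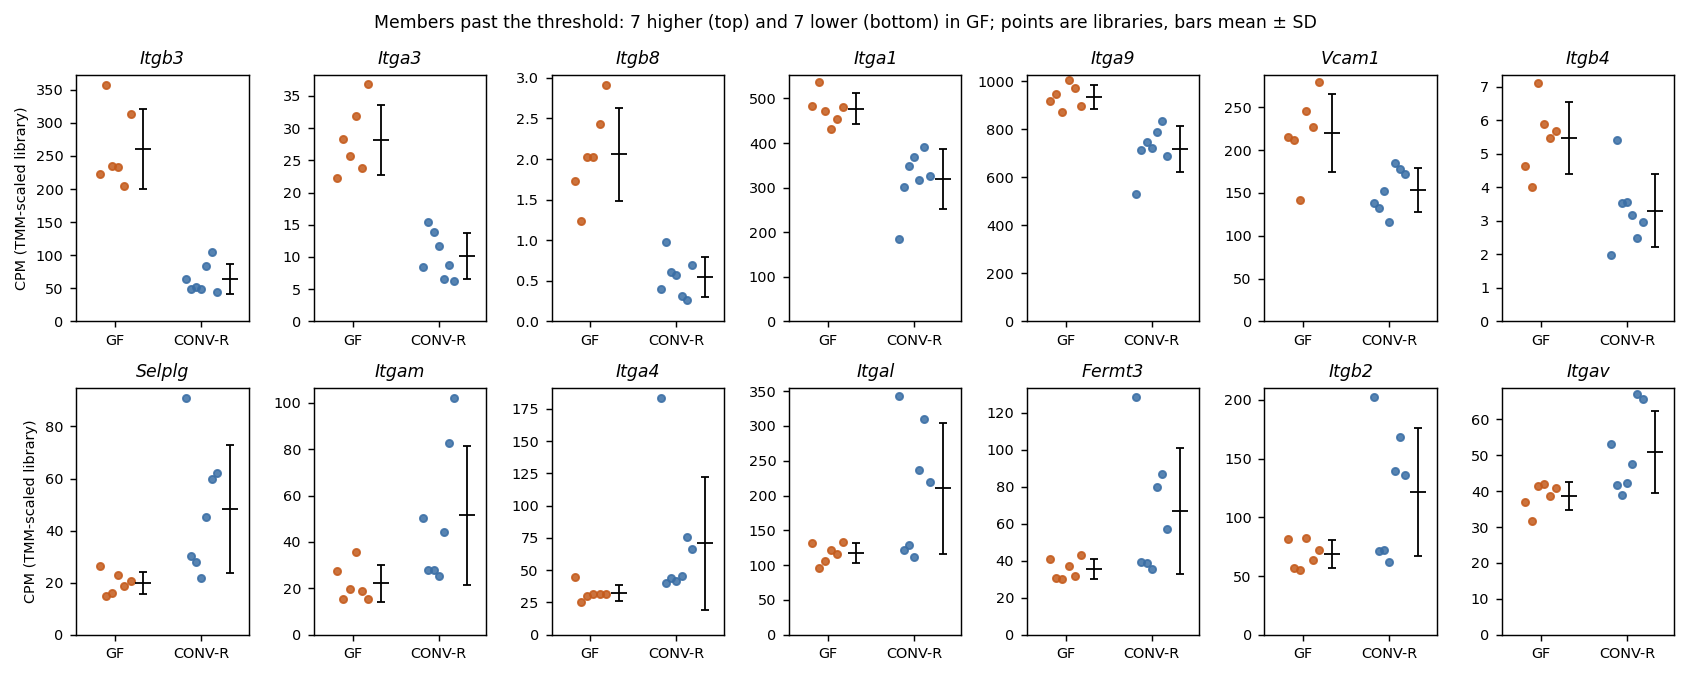
CPM (y axis, from 0) of the 14 members past the threshold in each GF and CONV-R library, with mean and SD beside the points. The GF and CONV-R points of Itgb3, Itgb8, Itga3, Itga1 and Itga9 do not overlap, and those of the 7 members in the lower row do.

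To compare beta chains with each other, CPM were divided by the kilobases of exon in the gene. Among the 4 alphav partners other than beta1, Itgb3 held 77.2% ± 4.69 of the summed level in GF and 38.9% ± 5.31 in CONV-R. Itgb5 held 22.2% ± 4.51 in GF and 60.6% ± 5.41 in CONV-R. The larger of the pair was Itgb3 in 6 of 6 GF libraries, whereas Itgb5 was the larger in 7 of 7 CONV-R libraries, where it held 53.8% to 68.3%. Itgb1 outweighed all of them: with it included, it held 80.9% ± 2.49 of the sum in GF and 87.7% ± 4.83 in CONV-R, and Itgb3 14.8% ± 2.48 in GF and 4.65% ± 1.57 in CONV-R. These shares are of transcripts and say nothing of which chains were paired.

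**Figure D3:**
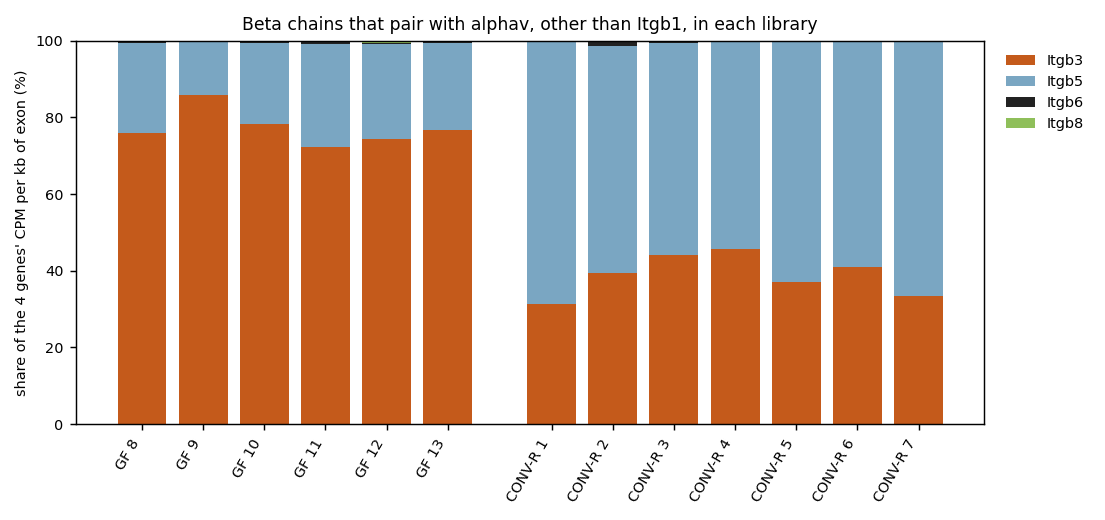
Share of Itgb3, Itgb5, Itgb6 and Itgb8 in their summed CPM per kb of exon (y axis, percent) in each GF library (left) and CONV-R library (right). Itgb3 holds 72.4% to 85.9% in GF libraries and 31.4% to 45.8% in CONV-R libraries.

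Beta1 is the common partner of the collagen, laminin and fibronectin receptors, and beta4 pairs with alpha6 in a laminin receptor of epithelia. In this group 4 of 11 tested genes (36.4%) rose in GF and 0 fell by edgeR, beside 11.4% and 12.7% of all tested genes. At an unadjusted p under 0.05 1 was lower, with DESeq2 0 and with limma-voom 1. In a group this small a count of 0 says little beside 12.7%. Itga4 (log2 fold change -1.12, adjusted p = 0.0296) and Itgav (-0.39, adjusted p = 0.0449) also encode partners of beta1. Both fell but are counted in other groups here. Itgb1, per exon length the most abundant member with 241 ± 19.1 CPM per kb in GF and 207 ± 33.1 in CONV-R, did not pass the test. It stood at 886, 962 and 1102 CPM in GF and 617, 842 and 986 CPM in CONV-R, with 2 of 6 GF values higher than any CONV-R value (log2 fold change 0.22 ± 0.11, adjusted p = 0.149).

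Itga3, the alpha chain of a laminin receptor, rose most of the alpha chains. It stood at 22.2, 27.0 and 36.8 CPM in GF and 6.23, 8.75 and 15.5 CPM in CONV-R (lowest, median, highest), and the groups did not overlap. The mean was 28.1 ± 5.45 CPM in GF and 10.2 ± 3.60 CPM in CONV-R, a log2 fold change of 1.45 ± 0.21 (2.74-fold, adjusted p = 6.43e-04). The gene lies on GRCm38 chromosome 11 at 95044474 to 95076801. Its call was lost with the hepatocyte marker sum (0.98, adjusted p = 0.087) or the neutrophil and monocyte marker sum (0.83, adjusted p = 0.119) as a covariate, and it stood at 0.93 with the cholangiocyte sum (adjusted p = 0.0131).

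Itga1, the alpha chain of a collagen receptor, stood at 432, 477 and 536 CPM in GF and 186, 326 and 391 CPM in CONV-R, without overlap (log2 fold change 0.58 ± 0.13, adjusted p = 0.00941). Itga9 encodes the chain of a receptor for tenascin-C, osteopontin and VCAM-1. It had 872, 932 and 1004 CPM in GF and 529, 722 and 834 CPM in CONV-R, again without overlap (0.38 ± 0.09, adjusted p = 0.0115). The endothelial marker sum differed by 0.25 on the log2 scale in the same direction. That 0.25 is on library totals, whereas the gene values are scaled by TMM, so the sizes are not comparable. The TMM factors were 0.937 to 0.983 in GF and 1.009 to 1.081 in CONV-R, which raises GF values against CONV-R. With that sum as a covariate, added after the data had been seen, Itga1 stood at 0.34 (adjusted p = 0.0798) and Itga9 at 0.24 (adjusted p = 0.0867). The hepatocyte, neutrophil and monocyte, B cell and cholangiocyte sums as covariates also ended both calls, and the Kupffer cell sum that of Itga1.

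Shares were taken over the 12 alpha chains that pair with beta1, here with Itga4 and Itgav among them. Per exon length Itga9 held 51.8% ± 2.06 of them in GF and 47.5% ± 2.82 in CONV-R, and was the largest in both groups. Itga5, the fibronectin receptor chain, held 14.9% in GF and 16.9% in CONV-R, and Itga8, a chain for nephronectin and fibronectin, 13.3% in GF and 14.6% in CONV-R. Itga5 stood at 160.0 to 190.0 CPM in GF and 107.1 to 190.0 CPM in CONV-R, where library 1 was the lowest and the others began at 161 (log2 fold change 0.07 ± 0.11, adjusted p = 0.682). Itga8 ranged from 199 to 262 CPM in GF and from 82.9 to 362 CPM in CONV-R (0.07 ± 0.27, adjusted p = 0.867), with CONV-R 1 and 7 lowest. Its sign depended on the setting, and against CONV-R 2, 3 and 4 alone it was -0.38 (adjusted p = 0.0474).

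Itgb4 had 4.02, 5.57 and 7.10 CPM in GF and 1.98, 3.18 and 5.41 CPM in CONV-R, with 4 of 6 GF libraries above every CONV-R library (log2 fold change 0.71 ± 0.21, adjusted p = 0.0262). The call was lost without CONV-R 6 or without any 1 of GF 10 to 13 (adjusted p 0.0515 to 0.0676) and with limma-voom (adjusted p = 0.0672), and the value was 0.20 with the cholangiocyte sum as a covariate. Its partner gene Itga6 stood at 58.98, 68.98 and 81.4 CPM in GF and 65.8, 74.0 and 105.6 CPM in CONV-R (log2 fold change -0.24 ± 0.12, adjusted p = 0.149). Itga10, a chain of a cartilage collagen receptor, had 9.01 to 13.4 CPM in GF and 5.89 to 25.6 CPM in CONV-R (adjusted p = 0.710), and 33.5% of its exon bases are shared with Gm42957 on the same strand. The collagen receptor gene Itga2 and the laminin receptor gene Itga7 stayed under 5 CPM in every library and did not pass the test (adjusted p = 0.431 and 0.103).

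Of the 7 tested integrin chains of leukocytes, 4 (57.1%) fell in GF by edgeR and 0 rose, beside 12.7% and 11.4% of all tested genes. The count of those that rose was also 0 at an unadjusted p under 0.05 and with DESeq2 and limma-voom. These 7 chains had a median log2 fold change of -0.84. DESeq2 called 5 of them lower and limma-voom with quality weights 1, Itga4. Itgb2, the beta2 chain (CD18), stood at 54.9, 67.9 and 82.7 CPM in GF and 61.9, 136 and 203 CPM in CONV-R (lowest, median, highest), a log2 fold change of -0.83 ± 0.27 (adjusted p = 0.0388). Itgal, the alpha chain of LFA-1, had 95.9, 119.3 and 132.9 CPM in GF and 112, 219 and 343 CPM in CONV-R (-0.84 ± 0.26, adjusted p = 0.0308). For both genes only 2 of 6 GF libraries lay below every CONV-R library, since CONV-R 2, 3 and 4 stood within or beside the GF range at 61.9 to 72.1 CPM of Itgb2 and 112 to 129 CPM of Itgal. CONV-R 1, 5, 6 and 7 lay above all GF libraries. These bulk libraries do not show which cells the reads came from, and fewer cells and less RNA per cell cannot be told apart.

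Itgam, the alphaM chain (CD11b) of the complement receptor on neutrophils, monocytes and macrophages, had 15.4, 19.3 and 35.8 CPM in GF and 25.4, 44.1 and 102.0 CPM in CONV-R. Of the GF libraries 4 of 6 lay below every CONV-R library (log2 fold change -1.21 ± 0.35, adjusted p = 0.0252). The level of Itgam is uncertain, because in GENCODE M21 68.7% of its exon bases also lie in exons of Gm49368 on the same strand, a symbol without a row in the count table. Itga4, the chain by which lymphocytes, monocytes and eosinophils bind VCAM-1, had 25.7, 31.5 and 44.6 CPM in GF and 40.4, 45.2 and 183 CPM in CONV-R (-1.12 ± 0.34, adjusted p = 0.0296). Here 5 of 6 GF libraries lay below every CONV-R library. CONV-R 1 held the 183 CPM and the other CONV-R libraries at most 75.5; without CONV-R 1 the log2 fold change of Itga4 was -0.69 (adjusted p = 0.0155).

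Itgax, the alphaX chain (CD11c) of dendritic cells and some macrophages, lay just outside the threshold, at 7.18, 8.31 and 18.2 CPM in GF and 12.2, 15.9 and 49.6 CPM in CONV-R (log2 fold change -0.98 ± 0.35, adjusted p = 0.0533). CONV-R 1 again was the highest, and the value without it was -0.59 (adjusted p = 0.0731). The gut-homing chain beta7 (Itgb7) had 15.5, 21.5 and 25.8 CPM in GF and 15.4, 20.2 and 142 CPM in CONV-R (-0.76 ± 0.51, adjusted p = 0.289). All CONV-R libraries except library 1 lay between 15.4 and 21.0 CPM, and without that library the value was 0.18. Its partner alphaE (Itgae), a marker of tissue-resident T cells, was at 9.43 CPM in GF 8 and 6.08 CPM in CONV-R 1, against 0.556 to 1.24 CPM in the other GF libraries and 0.777 to 2.61 CPM in the other CONV-R libraries (adjusted p = 0.922). Without GF 8 it stood at -1.31 (adjusted p = 0.0752).

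Of 5 lists of leukocyte markers, 2 had a lower sum in GF, that of B cells and that of neutrophils and monocytes (adjusted p = 0.00641 and 0.00855, exact permutation test). No gene of these lists except Camp was at 0 in any library. CONV-R 1 stood apart with a B cell marker sum of 1775 CPM, against 20.1 to 38.0 CPM in GF and 59.1 to 84.8 CPM in the other CONV-R libraries, and 8 of 8 B cell genes were lower in GF. Among the most abundant of them, Cd79a averaged 5.14 CPM in GF, and in CONV-R it stood at 347.5 CPM in library 1 and at 11.1 to 16.2 CPM in the others. The T and NK cell sum of CONV-R 1 was 407 CPM, against 236 CPM in GF 8, 69.04 to 93.4 CPM in the other GF libraries and 70.7 to 103 CPM in the other CONV-R libraries (adjusted p = 0.647 between the groups, exact permutation test). The most abundant genes of that list, Gzma and Lck, averaged 37.2 and 14.1 CPM in GF and 22.3 and 24.1 CPM in CONV-R; in CONV-R 1 Gzma was at 11.05 CPM and Lck at 77.96 CPM. Of the 13 genes 1, Cd8b1, was lower in GF. The dendritic cell sum was 175.5 to 257 CPM in GF and 187.3 to 297.6 CPM in CONV-R (adjusted p = 0.699, exact permutation test). It consisted mostly of Zbtb46 and Clec9a, which averaged 122.1 and 105.3 CPM in GF and 105.3 and 93.0 CPM in CONV-R. The other genes of that list averaged 0.235 to 0.697 CPM in GF and 1.61 to 12.8 CPM in CONV-R, with CONV-R 1 highest in each. The sum therefore says little about those scarcer genes. Of the 7 dendritic cell genes, 4 were lower in GF. The neutrophil and monocyte sum was highest in CONV-R 7 and 6, at 2458 and 1508 CPM, and 11 of 14 tested genes of that list were lower in GF. S100a9 and Csf3r, its most abundant genes, averaged 34.2 and 32.4 CPM in GF against 300.1 and 189.6 CPM in CONV-R. CONV-R 1 differed from the other CONV-R libraries. Its S100a9 was at 10.2 CPM, below every GF library (24.7 to 56.5), and its Csf3r at 37.5 CPM, within the GF range (23.1 to 45.9). Its Retnlg was at 52.7 CPM, above every GF library (2.52 to 6.72). The Kupffer cell and macrophage sum was 2311 to 3766 CPM in GF. It was 2450 to 3103 CPM in CONV-R 2, 3 and 4 and 4452 to 7701 CPM in CONV-R 1, 5, 6 and 7 (adjusted p = 0.150 between the groups, exact permutation test), and 0 of its 11 genes passed the threshold in edgeR (8 lower at an unadjusted p under 0.05, 4 with DESeq2 and 0 with limma-voom). Its most abundant genes were Clec4f, at a mean of 740.4 CPM in GF and 1168 CPM in CONV-R, and Cd5l. Against CONV-R 2, 3 and 4 alone, Itgal stood at -0.04, Itgb2 at 0.00, Itgam at -0.29 and Itga4 at -0.37, and none of the 4 passed the test. For Itgal and Itgb2 these are the libraries that lay within or beside the GF range. Values near 0 against them therefore follow from the choice of libraries. The part of leukocytes in the fall of the chains was not tested beyond the values given here and the covariates below.

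**Figure D4:**
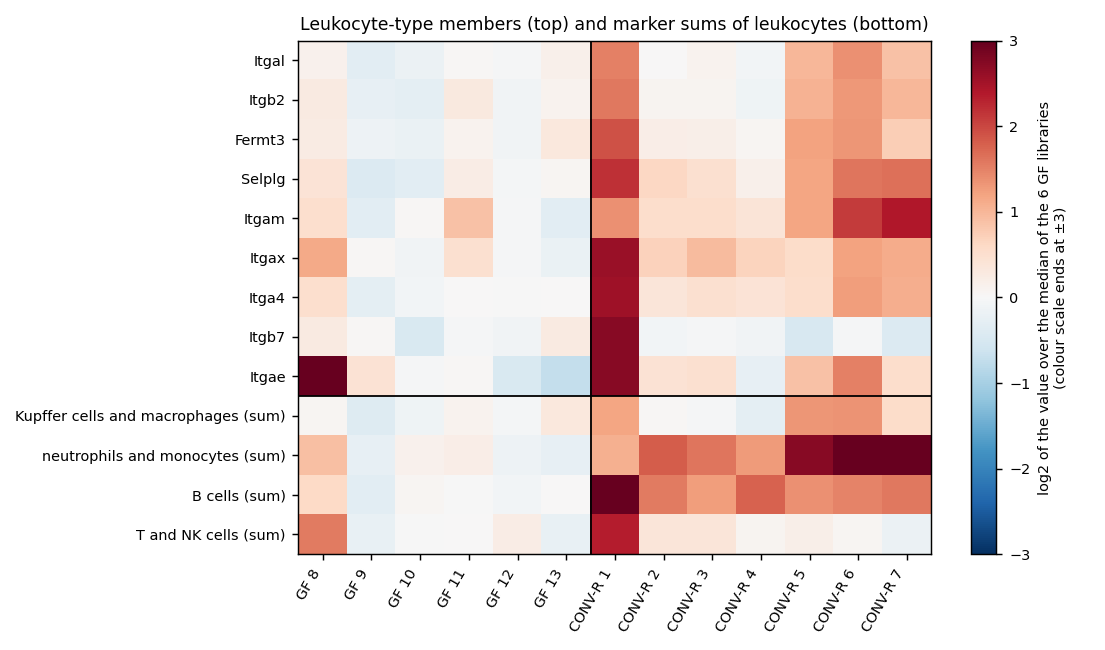
Heat map of 9 leukocyte-type members (top rows) and 4 leukocyte marker sums (bottom rows) in each library, as log2 of the value over the median of the 6 GF libraries. Rows of Itgal, Itgb2 and Fermt3 are warm in CONV-R 1, 5, 6 and 7, as is that of Kupffer cells and macrophages, and Itgb7 is raised in CONV-R 1 with a log2 value of 2.73.

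With the hepatocyte, the neutrophil and monocyte, the Kupffer cell, the B cell, the cholangiocyte or the endothelial marker sum as a covariate, none of Itgal, Itgb2, Itgam and Itga4 passed the threshold. The hepatocyte sum was at most 1330 CPM in GF and at least 1448 CPM in CONV-R. The neutrophil and monocyte sum (227.3 and 252.5 CPM) and the B cell sum (37.96 and 59.09 CPM) were likewise apart. Covariates so close to the group label can end a call by themselves, so these fits do not show where the difference came from. The relative makeup of the beta2-type alpha chains differed less than their level. Per exon length Itgal was 73.4% ± 5.72 of the beta2-type alpha chains in GF and 68.8% ± 5.43 in CONV-R, and Itgam 17.7% ± 4.29 in GF and 21.7% ± 6.76 in CONV-R, while the summed level was 24.5 CPM per kb in GF and 46.5 in CONV-R. Single libraries decided some calls. That of Itgal was lost without CONV-R 1 or 6 or any 1 of GF 9 to 12 (adjusted p 0.0565 to 0.0668), and that of Itgb2 without any 1 of CONV-R 1, 5, 6 and 7 or GF 8 to 13 (adjusted p up to 0.0800). That of Itgam was lost without CONV-R 6 or GF 9, 10, 12 or 13 (adjusted p 0.0509 to 0.0588), and that of Itga4 without CONV-R 6 or any 1 of GF 9 to 13 (adjusted p 0.0502 to 0.0650).

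Promoter sequence from RefSeq (GRCm38.p6, the 250 bases before the annotated start) was at hand for 26 members, 8 of them past the threshold. Below are Itga1, which rose, Itgam, the integrin chain that fell most, and Fermt3, the leukocyte kindlin gene described further on, all with a start at the edge of the gene in the GENCODE annotation as well. They are shown because they let the regions of a member that rose and of 2 that fell be read side by side. Capitals mark TGTTCT, the half-site of the glucocorticoid receptor element, or GAGGAA, a core of the PU.1 motif of myeloid cells, on either strand (GAGGAA reads TTCCTC on the other).
Itga1, chr13:115101965-115102214, minus strand: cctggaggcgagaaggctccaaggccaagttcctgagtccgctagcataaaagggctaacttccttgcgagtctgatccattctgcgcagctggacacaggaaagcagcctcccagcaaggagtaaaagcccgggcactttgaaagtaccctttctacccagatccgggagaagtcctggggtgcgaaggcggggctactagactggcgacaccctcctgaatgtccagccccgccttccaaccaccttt
Itgam, chr7:128062390-128062639, plus strand: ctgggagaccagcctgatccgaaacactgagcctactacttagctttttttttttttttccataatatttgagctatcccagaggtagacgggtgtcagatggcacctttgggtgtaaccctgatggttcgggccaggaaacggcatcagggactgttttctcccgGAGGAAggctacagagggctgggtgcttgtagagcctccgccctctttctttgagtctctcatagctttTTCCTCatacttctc
Fermt3, chr19:7019470-7019719, minus strand: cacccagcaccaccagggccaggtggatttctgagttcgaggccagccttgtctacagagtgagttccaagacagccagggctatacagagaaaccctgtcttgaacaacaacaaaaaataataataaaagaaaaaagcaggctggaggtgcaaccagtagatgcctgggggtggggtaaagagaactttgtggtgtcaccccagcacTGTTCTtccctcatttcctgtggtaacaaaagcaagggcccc
The Itga1 region held neither motif, that of Itgam held GAGGAA 2 times and that of Fermt3 held TGTTCT 1 time. Not shown were Itga4 and Itgav, which also fell and also have a start at the edge of the gene. The Itga4 region held neither motif and that of Itgav held GAGGAA 2 times, so the regions shown do not stand for all that fell. Over all 32851 mouse promoter regions of this length, 23.3% held GAGGAA and 16.1% held TGTTCT. Among 29 regions of the members, 10 held GAGGAA and 5 held TGTTCT, and a NF-kappaB motif was in 1 (Ilk), beside 3.9% of all regions. Among the 5 regions of members that rose 1 held GAGGAA (Itga3) and 0 held TGTTCT, and among the 4 of members that fell 2 held GAGGAA (Itgam and Itgav) and 1 held TGTTCT (Fermt3). Such a match is a run of letters and not a shown binding site. GAGGAA was added to the search after the counts had been seen.

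Of the endothelial counter-receptors of these leukocyte integrins, Vcam1 alone passed the test in edgeR, while DESeq2 also called Icam2 higher and Icam1 lower, and limma-voom Icam1 lower. Vcam1, the ligand of alpha4 and alpha9 integrins (GRCm38 chromosome 3, 116109949 to 116129688), rose in GF. It had 142, 221 and 280.1 CPM in GF and 117, 152 and 185 CPM in CONV-R (lowest, median, highest), and all GF libraries except GF 10 exceeded the highest CONV-R library. The mean was 220.1 ± 46.0 CPM in GF and 153.6 ± 25.9 CPM in CONV-R, a log2 fold change of 0.52 ± 0.15 (adjusted p = 0.0212). The call was lost without GF 13 (0.44, adjusted p = 0.0529) and against CONV-R 5 to 7 alone (0.29, adjusted p = 0.206), and the value against CONV-R 1 to 4 alone was 0.71 (adjusted p = 0.0213). It was also lost with each marker sum tried as a covariate except that of Kupffer cells.

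Icam1, the inducible ligand of LFA-1 and of alphaMbeta2, stood at 102.0, 105 and 125 CPM in GF and 109, 128 and 151 CPM in CONV-R, with 4 of 6 GF libraries below every CONV-R library. Its log2 fold change of -0.21 ± 0.08 did not pass the threshold (adjusted p = 0.0739). Icam2, a constitutive endothelial ligand of LFA-1, had 174, 195 and 215 CPM in GF and 140.3, 152 and 202 CPM in CONV-R, with overlap (0.25 ± 0.10, adjusted p = 0.0694). Per exon length Icam2 was the most abundant of the 3, at 102.0 CPM per kb in GF and 85.6 in CONV-R. Icam1 had 25.0 CPM per kb in GF and 28.9 in CONV-R, and Vcam1 24.8 in GF and 17.3 in CONV-R.

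Neither of the selectins that endothelium displays passed the test in edgeR, while DESeq2 and limma-voom called the E-selectin gene lower. P-selectin (Selp), stored in endothelial granules and platelets, had 30.3, 38.7 and 46.3 CPM in GF and 18.8, 28.2 and 47.9 CPM in CONV-R, with overlap (log2 fold change 0.35 ± 0.18, adjusted p = 0.168). E-selectin (Sele), induced on endothelium by cytokines, had 22 to 55 counts per GF library and 11 to 109 per CONV-R library. Its level was 0.832, 1.23 and 1.59 CPM in GF and 1.07, 1.553 and 4.67 CPM in CONV-R (-0.91 ± 0.35, adjusted p = 0.0709), with CONV-R 3 and 7 highest.

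Selplg, the gene of PSGL-1, by which leukocytes bind P-selectin, fell most of all members. It had 14.97, 19.8 and 26.3 CPM in GF and 21.8, 45.3 and 91.0 CPM in CONV-R (lowest, median, highest), and 4 of 6 GF libraries lay below every CONV-R library. The mean was 19.97 ± 4.28 CPM in GF and 48.3 ± 24.5 CPM in CONV-R, a log2 fold change of -1.27 ± 0.30 (adjusted p = 0.00999). The gene lies on GRCm38 chromosome 5 at 113818536 to 113832644. Its call held on leaving out any 1 library, with values of -1.40 to -1.04. It was lost against CONV-R 2, 3 and 4 alone (-0.42, adjusted p = 0.116), against CONV-R 1 to 4 alone (-1.09, adjusted p = 0.0724) and with each of the 6 marker sums tried as a covariate (-0.12 with the hepatocyte sum).

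Of the intracellular activators, 0 of 4 tested members rose by edgeR (1 at an unadjusted p under 0.05, 1 with DESeq2 and 1 with limma-voom) and Fermt3 fell. Of all tested genes 11.4% rose and 12.7% fell, so counts among 4 genes say little. Tln1, the main talin, was nearly level at 862, 904 and 963 CPM in GF and 829.9, 862 and 994 CPM in CONV-R (log2 fold change 0.06 ± 0.06, adjusted p = 0.521). Fermt2 encodes kindlin-2, the kindlin of endothelium and most tissues, and had 335, 358 and 402 CPM in GF and 194, 266 and 353 CPM in CONV-R (0.34 ± 0.12, adjusted p = 0.0562), with 4 of 6 GF libraries above every CONV-R library. Fermt3 encodes kindlin-3, the kindlin of blood cells, and had 29.9, 34.4 and 43.0 CPM in GF and 35.8, 57.1 and 129 CPM in CONV-R (-0.90 ± 0.28, adjusted p = 0.0322). As for Itgal, CONV-R 1, 5, 6 and 7 lay above every GF library, whereas CONV-R 2, 3 and 4 held 35.8 to 39.5 CPM. The call was lost without any 1 of CONV-R 1, 5 and 6 or GF 9 to 12 (adjusted p 0.0529 to 0.0673) and with limma-voom (adjusted p = 0.140). Against CONV-R 2, 3 and 4 alone, the CONV-R libraries nearest GF, the value was -0.10, as follows from that choice. Ilk, the integrin-linked kinase, had 175 to 214 CPM in GF and 182 to 229.7 CPM in CONV-R (-0.14 ± 0.07, adjusted p = 0.132). Its counts are uncertain, because 76.7% of its exon bases also lie in exons of Taf10 on the opposite strand and the strand setting of the counting is not given.

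The paralogs of these activators, chosen for display after their values had been seen, included genes that rose and 1 that fell. Tln2, the second talin, rose, with 28.2 to 38.8 CPM in GF and 6.995 to 13.6 CPM in CONV-R (log2 fold change 1.46 ± 0.14, adjusted p = 2.63e-05). It held 1.95% of talin transcripts per exon length in GF and 0.743% in CONV-R. Of the PINCH genes, whose products join integrin-linked kinase, Lims2 rose (81.1 to 115 CPM in GF, 41.0 to 62.2 CPM in CONV-R; 0.97 ± 0.11, adjusted p = 7.76e-05) and Lims1 did not pass the test (0.07 ± 0.11, adjusted p = 0.698). Lims2 thus held 53.9% to 58.3% of the pair in GF and 37.6% to 45.01% in CONV-R, with no overlap between the groups. Among the parvins, actin-binding partners of the kinase, Parva (0.33 ± 0.10, adjusted p = 0.0303) and Parvb (0.25 ± 0.08, adjusted p = 0.0401) rose and the blood-cell form Parvg fell (-1.41 ± 0.38, adjusted p = 0.0172). Parvg had 5.08 to 9.70 CPM in GF, 53.9 CPM in CONV-R 1 and 10.2 to 23.4 CPM in the other CONV-R libraries. The epithelial kindlin gene Fermt1 rose (1.06 ± 0.31, adjusted p = 0.0238) at 1.46 to 3.29 CPM in GF and 0.623 to 2.26 CPM in CONV-R. Of these calls, those of Parva, Parvb and Fermt1 did not hold on leaving out every single library: Parva was lost without CONV-R 5, 6 or 7 or GF 8 to 12, Parvb without CONV-R 1, 5, 6 or 7 or any GF library, and Fermt1 without GF 10 or 13, with adjusted p up to 0.0708, 0.0939 and 0.0574.

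**Figure D5:**
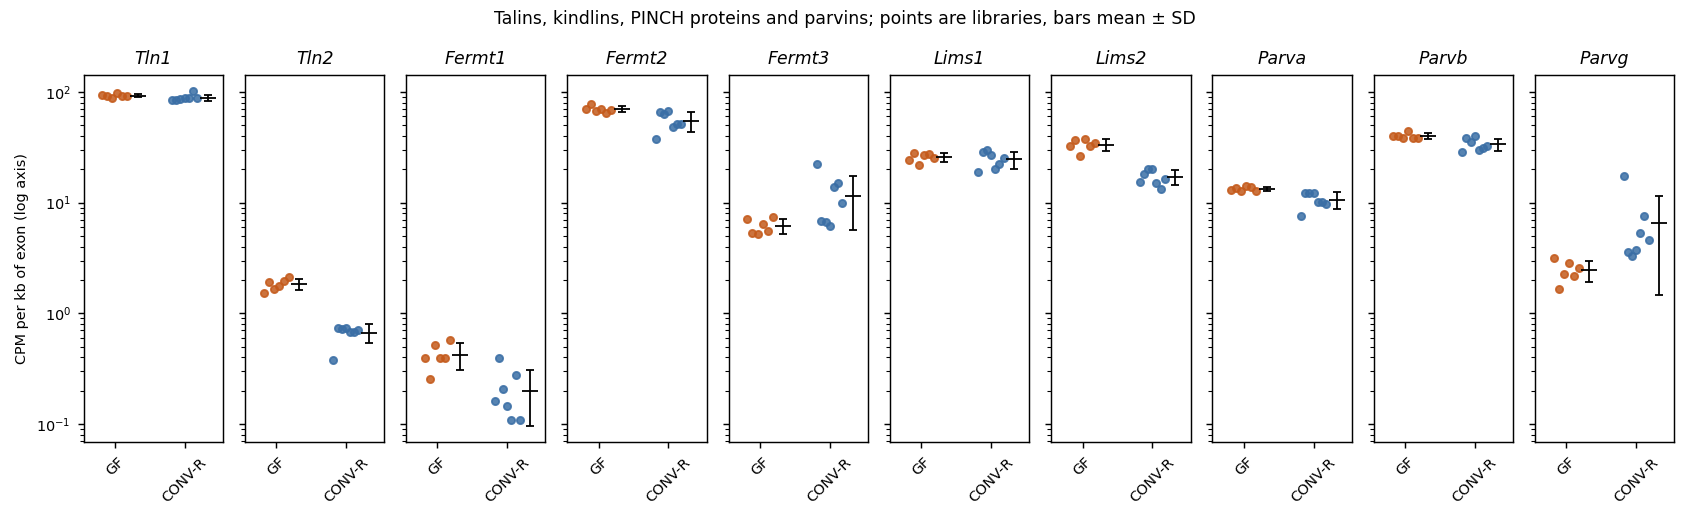
CPM per kb of exon (log axis) of the talin, kindlin, PINCH and parvin genes in each GF and CONV-R library, with mean and SD beside the points. Tln2 and Lims2 are higher in all GF libraries than in any CONV-R library, and Fermt3 and Parvg are spread widely among CONV-R libraries.

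Adaptors and regulators outside the member list, 36 genes that were all tested, had 10 higher (27.8%) and 4 lower (11.1%) in GF. Their median log2 fold change was 0.10. Of all tested genes 11.4% rose and 12.7% fell, with a median of -0.01. Besides Tln2 and Lims2, the most significant were Tns1, the actin and integrin linker tensin-1 (1140 ± 72.2 CPM in GF, 470.3 ± 91.3 CPM in CONV-R; 1.28 ± 0.12, adjusted p = 3.02e-05), and Rasgrp2, the exchange factor that activates Rap1 upstream of talin in platelets (0.77 ± 0.14, adjusted p = 0.00225). The focal adhesion gene Zyx, for zyxin, fell (-0.35 ± 0.08, adjusted p = 0.00694), and Cd47, an integrin-associated membrane protein, rose (0.28 ± 0.07, adjusted p = 0.0110). Tln2, Tns1, Lims2 and Rasgrp2 kept their call under each of the 31 alternative settings.

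Of 36 integrin ligands 34 were tested, of which 9 rose (26.5%, beside 11.4% of all tested genes) and 6 fell (17.6%, beside 12.7%). The median was 0.41, beside -0.01 over all tested genes. Ctgf, a matricellular ligand of alphav and other integrins, rose to 287 ± 58.0 CPM in GF, against 59.0 ± 27.7 CPM in CONV-R (2.28 ± 0.34, adjusted p = 6.86e-04), and Nid1, the basement membrane protein nidogen-1, rose by 0.47 ± 0.11 (adjusted p = 0.0104). The fibrinogen genes Fga, Fgb and Fgg and the vitronectin gene Vtn, ligands of alphavbeta3 and alphaIIbbeta3 that hepatocytes make, fell by 2.93, 2.89, 3.02 and 2.49 on the log2 scale. Fgg is itself among the hepatocyte markers that were lower in GF, and Vtn stood at 0.07 with the hepatocyte sum as a covariate. The fibronectin gene Fn1 had 29.7 to 299 CPM in GF and 39.4 to 139 CPM in CONV-R (adjusted p = 0.989). The 299 CPM were those of GF 11 alone. Per kb of exon GF 11 stood at 25.6, the other GF libraries at 2.54 to 3.92 and the CONV-R libraries at 3.37 to 11.9.

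Of 21 selectin ligands and their glycosylation enzymes 19 were tested. Of these 2 rose (10.5%, near the 11.4% of all tested genes) and 5 fell (26.3%, beside 12.7%). The median was -0.14, beside -0.01 over all tested genes. Glg1, which encodes an E-selectin ligand, rose by 0.39 ± 0.07 (adjusted p = 0.00187), as did the tyrosylprotein sulfotransferase gene Tpst2 (0.26 ± 0.08, adjusted p = 0.0367), a call lost without any 1 of CONV-R 1, 6 and 7 or GF 8 to 13 (adjusted p up to 0.108). Its relative Tpst1 fell by 0.52 on the log2 scale (adjusted p = 0.0310), a call lost without any 1 of CONV-R 5 and GF 8, 10, 11 and 13 (adjusted p up to 0.0642). Chst2, a sulfotransferase of selectin ligands, fell by 0.64 (adjusted p = 0.00396), to 94.1 ± 9.89 CPM in GF, against 147 ± 30.1 CPM in CONV-R. Gcnt1, the enzyme that branches the glycans of PSGL-1, fell by 1.33 (adjusted p = 0.0251), a call lost without any 1 of GF 9, 10, 12 and 13 (adjusted p up to 0.0540).

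Of 25 other endothelial and immunoglobulin-type adhesion genes 22 were tested. Of these 8 rose (36.4%, beside 11.4% of all tested genes) and 1 fell (4.55%, beside 12.7%). The median was 0.32, beside -0.01 over all tested genes. Jam2, a junctional ligand of alpha4beta1, rose to 1300 ± 95.0 CPM in GF, against 632.7 ± 111.7 CPM in CONV-R (1.04 ± 0.12, adjusted p = 1.01e-04), and passed the threshold under each of the 31 alternative settings. Pvrl3 (nectin-3; 0.49 ± 0.09, adjusted p = 0.00326), Esam (0.60 ± 0.13, adjusted p = 0.00599), Clec14a (0.59 ± 0.14, adjusted p = 0.0101), the laminin receptor gene Bcam (0.72 ± 0.18, adjusted p = 0.0139) and Pecam1 (0.41 ± 0.11, adjusted p = 0.0202) also rose. The call of Pecam1 was lost without GF 9 (adjusted p = 0.0551). Pecam1 and some other genes of this list are also among the endothelial markers, whose sum was higher in GF. The share that rose is therefore not separate from that of endothelial genes in general.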

How the data were processed

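RNA was sequenced from liver endothelial cells of 13 libraries; per the labels' protocols these were stranded mRNA libraries run on a NovaSeq instrument. The authors deposited raw counts per gene symbol, whole numbers that had not been normalized, in 1 table of 24421 symbols with 0 duplicates and 0 columns from outside the series. The submitters' processing notes name FastQC 0.11.9, STAR 2.7.5a, featureCounts 2.0.1, DESeq2 1.42.1 and the mm10 build. What annotation and strand setting were used, and how reads mapping to several genes were treated, is not stated in those notes or the labels, so overlapping genes can share reads.

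Genes were kept by filterByExpr of edgeR with a count of at least 10 and a total of at least 15. The robust quasi-likelihood test of edgeR 4.0.16 (R 4.3.3), after TMM scaling, was run over the 13915 genes left, and a Benjamini-Hochberg adjusted p under 0.05 made a call. Standard errors are the log2 fold change over the square root of F, and the biological coefficient of variation was 0.264. CPM of genes are scaled by TMM and those of marker sums by the library total; per-length values use GENCODE M21 exons. Marker sums were compared as log2 of the sum plus 1. Tried instead were DESeq2 1.42.0, voom in limma 3.58.1 with quality weights, other scalings, filters and thresholds, subsets of libraries, each library left out and marker sums as covariates. The fit was checked on simulated data.

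Every pair of libraries of a group differed by more than counting noise, with a chi-square of at least 13.4 for each degree of freedom over genes of 20 or more counts. Low counts limit scarce genes, and intervals from counts would cover counting error only. The members and lists were chosen with earlier results of these data known. Values per library are given for members past the threshold or with a mean of at least 5 CPM in a group, and up to 6 genes past the threshold, those of smallest p, are named from each further list; some genes that this rule or the marker lists would name are not reported here. Of the genes asked for, 3 were found under a synonym; Cd99 and Ighm were not matched and are not analysed here.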

Additional observations from a re-analysis of the deposited data

Results flagged for a closer look

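Of 152 sets of values of 1 gene or marker sum in 1 group, 22 (14.5%) held a library that stood apart from the other libraries of its group by a gap test that chance passes in about 1 of 20 sets. The library was CONV-R 1 in 12 of them, GF 8 in 6, GF 11 in 3 and CONV-R 6 in 1, so the sets are not independent.

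In GF 8, 3 members and 3 marker sums stood apart. Itgae stood at 9.43 CPM, with the other GF libraries at 0.556 to 1.24, and Itgad at 1.45 CPM (others 0.289 to 0.314). Itga4 stood at 44.6 CPM (25.7 to 31.9). The marker sums that stood apart in GF 8 were those of T and NK cells at 235.9 CPM (others 69.04 to 93.4), of neutrophils and monocytes at 227.3 CPM (101.7 to 139.2) and of B cells at 37.96 CPM (20.1 to 26.0). In GF 11 the stellate cell and fibroblast sum was 313.6 CPM, with the other GF libraries at 48.4 to 91.97. Most of it was Col3a1, at 246.3 CPM in GF 11 and at most 7.048 CPM in the other GF libraries. Dcn, Lum and Pdgfrb were also highest in GF 11. Lrat at 6.328 CPM and Rgs5 at 9.694 CPM were the lowest of the GF libraries there. Des, Reln, Hand2 and Dpt lay within the range of the others, so the sum does not stand for the whole list. Itga11 in GF 11 was 0.135 CPM (0 to 0.0297), which is 3 counts against 0 or 1 and thus at the floor. Parvb in GF 11 was 197.5 CPM (168.8 to 177.4).

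In CONV-R 1 the B cell sum was 1775 CPM, with the other CONV-R libraries at 59.1 to 84.8, and the T and NK cell sum was 407.4 CPM (70.7 to 103.2). Among the members Itgb7 stood at 142.2 CPM (others 15.4 to 21.0), Itga4 at 183.1 CPM (40.4 to 75.5) and Itgax at 49.6 CPM (12.2 to 19.1). Itga2b was at 23.0 CPM (8.97 to 14.2), Itgae at 6.08 CPM (0.777 to 2.61) and Itgad at 1.014 CPM (0.125 to 0.360). Parvg stood at 53.9 CPM (10.2 to 23.4). Low in the same library were Itga5 at 107.1 CPM (161.3 to 190.0), Tln2 at 6.995 CPM (12.4 to 13.6) and Nid1 at 384.6 CPM (556.3 to 665.2). In CONV-R 6 Tln1 stood at 994.0 CPM (829.9 to 872.7).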

How the results depend on the processing

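Over 31 alternative settings and 34 tested members, 836 of 1048 log2 fold changes kept both direction and side of the threshold, 161 lost the call, 44 gained one and 7 changed sign with a call on one side. A further 66 changed sign with no call in either setting. The number of members called higher, 7 as reported, was 4 at a threshold of 0.01, 2 with the hepatocyte sum as a covariate and 1 with the neutrophil and monocyte sum. With sums chosen as covariates after seeing the data it was 4 with the B cell sum (3 of the 7, and Itgb7), 3 with the cholangiocyte and 3 with the endothelial sum; leaving out 1 library gave 5 to 10, with 5 to 7 of the 7. The number called lower, also 7 as reported, was 12 with library totals (the 7 and 5 others), 3 with no filter and 1 at a threshold of 0.01. It was 3 without CONV-R 1 and 7 (2 of the 7, and Ilk), 2 without CONV-R 6 and 7 (1 of the 7, and Itga6) and 1 to 9 with 1 library left out, with 1 to 7 of the 7. None of the 7 was called against CONV-R 1 to 4 (1 call, Itga6), against CONV-R 2, 3 and 4 (3 calls, Itga6, Itga8 and Sele) or with any covariate. CONV-R 2, 3 and 4 lay nearest GF for Itgal, Itgb2 and Fermt3, so that choice of libraries by itself weakens those calls. With covariates edgeR called 1 lower with the Kupffer cell sum (Itga6), 2 with the B cell sum (Sele and Ilk), and 0 with the hepatocyte sum (2 at an unadjusted p under 0.05), the neutrophil and monocyte sum (5), the cholangiocyte sum (3) and the endothelial sum (6). The hepatocyte, neutrophil and monocyte, and B cell sums did not overlap between the groups, so a call lost with them does not show a cause. The cause was not tested.

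Sign changes with the hepatocyte sum gave 0.0119 for Itga4, 0.0865 for Itgb2, 0.0447 for Fermt3, 0.0705 for Vtn, 0.0488 for Gcnt1 and -0.0137 for Parva. The neutrophil and monocyte sum gave 0.021 for Itgav and 0.0606 for Itgam, CONV-R 2, 3 and 4 alone gave -0.38 for Itga8, and the B cell sum gave 1.05 for Itgb7 (adjusted p = 0.00228). Counts called higher and lower ranged from 4 to 13 and 0 to 7 for the further adaptors (10 and 4 as reported), 0 to 15 and 0 to 7 for integrin ligands (9 and 6), 0 to 6 and 0 to 7 for selectin ligands (2 and 5), and 1 to 13 and 0 to 1 for other adhesion genes (8 and 1). No paired analysis was possible because the groups share no replicate number.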
